A study of Danio rerio with 6 samples.

Results

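The genes described here are those whose level in both number-4 libraries of a 6-library zebrafish fin series stood apart from the other libraries in the same direction. A gene was a member when its mean level over all 6 libraries was at least 2 CPM (counts per 1000000 reads assigned to genes) and when, in distal and in proximal tissue alike, the sample numbered 4 was at least 2 times both other samples of that region, or at most 0.5 times both. Of the 31901 listed genes, 14945 had a mean of at least 2 CPM. Among these, 58 genes (0.388%) were up in number 4 and 149 genes (0.997%) were down, 207 in all. The values of number 4 against numbers 2 and 3 chose these genes, so they are given as a description and were not tested. Nothing in the labels marks number 4 as different, and no gene was chosen on the difference between regions.

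The tissue was the regenerating caudal fin of zebrafish that carry shha:eGFP, a green fluorescent reporter of the Hedgehog ligand gene shha, collected 96 hours after amputation. Fluorescence guided the microdissection of each outgrowth into a distal piece, where the reporter is expressed, and a proximal piece. Each region has 3 samples, numbered 2, 3 and 4, and each sample pooled tissue from 4 fins. All groups share the transgene and the time point. The labels give no strain, age or sex, and they do not say whether same-numbered distal and proximal pieces came from the same fins, so p-values here measure the spread between these samples.

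A teleost fin grows back from a blastema, a mass of dividing cells under a wound epidermis, that re-forms bone, connective tissue, vessels and nerves. Zebrafish immune genes of the MHC class I, NLR and finTRIM (ftr) families are large, are arranged in clusters of related copies, and are known to differ in copy number and sequence between fish. Adult zebrafish also carry daily and feeding-dependent programmes in peripheral tissues, with transcriptional repressors of the Rev-erb family (nr1d genes) among the clock components. This is background to the names below and was not tested with these samples.

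Libraries held 20113859 to 23629159 gene-assigned reads, and 23856 to 24109 genes were detected in each. Within a region, the correlation of log2 levels over 14945 genes was 0.966 to 0.972 between number 4 and the others and 0.986 to 0.987 between numbers 2 and 3, over genes, which are not independent replicates. Fin tissue markers were present: 26 of 27 genes of the epidermal list, 19 of 20 of the osteoblast list and 35 of 36 of the blastema and fibroblast list reached a mean of 2 CPM, against 0 of 28 genes of the germline and egg list. The gene table calls both zebrafish shh genes SHH, and the one that was expressed (ENSDARG00000068567) measured 20.1, 14.0 and 18.97 CPM in distal samples 4, 2 and 3, against 5.35, 6.73 and 5.76 CPM in proximal samples 4, 2 and 3.

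Together the 58 genes that were up summed to 1280.5 CPM in distal sample 4, against 375 and 319 CPM in distal samples 2 and 3. In proximal tissue their sum was 1373 CPM in sample 4, against 437 and 360.1 CPM in samples 2 and 3. The 149 genes that were down summed to 702 CPM in distal sample 4, against 2380.4 and 2773 CPM in distal samples 2 and 3, and to 857 CPM in proximal sample 4, against 3321 and 3192 CPM in proximal samples 2 and 3. Most members were expressed at low levels, with a median of 5.01 CPM for the up genes and 6.45 CPM for the down genes, against 17.5 CPM over all 14945 genes. The median log2 shift of number 4 from the mean of numbers 2 and 3, on the log2(CPM + 0.1) scale, was 1.98 in distal and 2.102 in proximal tissue for the up genes, and -1.81 in distal and -1.69 in proximal tissue for the down genes. Over all 14945 genes it was -0.03 in distal and -0.08 in proximal tissue.

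**Figure D1:**
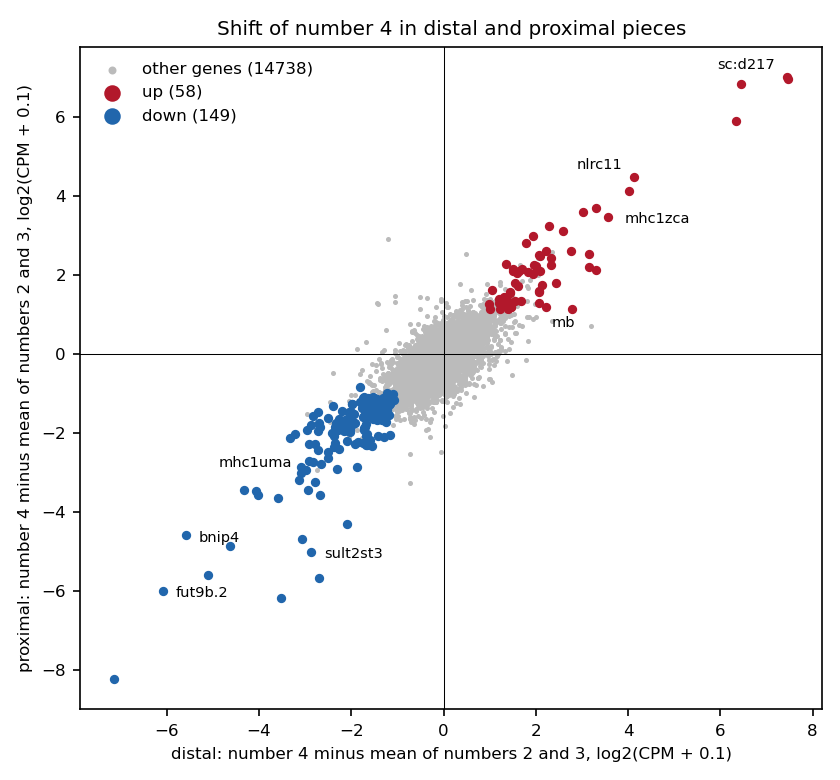
Shift of number 4 in distal tissue (x axis) against proximal tissue (y axis) for 14945 genes, each as number 4 minus the mean of numbers 2 and 3 on the log2(CPM + 0.1) scale; each point is a gene, with the 58 up genes in red, the 149 down genes in blue and the other 14738 genes in grey. The rule places red points at the upper right and blue points at the lower left; a few red points near 7 and blue points near -6 lie far beyond the bulk of members.

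The size of the shift was graded among members. The smallest of a gene's ratios between number 4 and the other samples had a median of 2.54 for up genes and 2.69 for down genes. It was at least 3 for 22 up and 56 down genes, at least 5 for 10 up and 19 down genes, and at least 10 for 7 up and 8 down genes. The distal and proximal shifts of a gene differed by a median of 0.38 log2 units for up genes and 0.33 for down genes, against 0.17 for all 14945 genes. They differed by 1 or more for 5 up genes (8.62%) and 13 down genes (8.72%), against 1.34% of all genes. Among the 8061 genes under 20 CPM the median difference was 0.21, and 2.12% differed by 1 or more. At the boundary, igflr1 and si:ch211-208f21.3 were the up genes with the smallest ratios, at 2.00 and 2.01. Just outside lay si:ch211-114l13.13, at 1.9996. On the down side aste1a and znf1030 were just inside at 2.00 each, and ENSDARG00000074844 and ddx43 were just outside at 1.9987 and 1.9957.

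The most extreme up genes were found in number 4 and hardly at all in the other libraries. sc:d217 (ENSDARG00000079645) had 17.3 CPM (348 counts) in distal sample 4 and 12.8 CPM (275 counts) in proximal sample 4, and 0 counts in all 4 libraries of numbers 2 and 3. Against the floor of 3 counts per library, it was at least 124-fold higher in distal and at least 93.4-fold higher in proximal tissue. ENSDARG00000109368, which has no symbol in the gene table, behaved alike, with 8.004 CPM in distal sample 4 and 5.87 CPM in proximal sample 4 and 0 counts elsewhere. Another gene without a symbol, ENSDARG00000099511, had 17.6 CPM in distal sample 4 and 14.8 CPM in proximal sample 4, and a single count over the other 4 libraries. These were the 3 up genes whose other libraries all lay under 3 counts. They were expressed in number-4 tissue with 126 to 355 counts a library, and were at or below the floor of 3 counts in the rest.

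Several up genes belong to families of pathogen sensing and antigen presentation. Families were counted by the start of the gene symbol, so copies with a clone name or no symbol are left out. As families, these and the finTRIM genes below were not among the gene lists and are described because they hold a member. Their shares therefore have no fair counterpart among all genes. nlrc11 encodes a member of the NLR family, cytosolic receptors of innate immunity. It had 19.7 CPM in distal sample 4, against 1.07 and 0.984 CPM in distal samples 2 and 3, and 21.9 CPM in proximal sample 4, against 1.02 and 0.777 CPM in proximal samples 2 and 3. Number 4 was at least 18.4 times each other library of its region. Of 14 measured genes with an nlr name nlrc11 was the 1 member (7.14%, against 0.388% of all genes that were up). mhc1zca, a class I histocompatibility gene of the Z lineage, had 5.92 CPM in distal sample 4, against 0.373 and 0.447 CPM in distal samples 2 and 3, and 5.87 CPM in proximal sample 4, against 0.466 and 0.411 CPM in proximal samples 2 and 3. Its relative mhc1zda had 14.9 CPM in distal sample 4, against 4.38 and 6.17 CPM in distal samples 2 and 3, and 13.6 CPM in proximal sample 4, against 3.22 and 3.02 CPM in proximal samples 2 and 3. These were 2 of 8 measured Z-lineage genes (25%, against 0.388% of all genes). The other 6, none of them members, had shifts from -0.47 (mhc1zba) to 0.37 (mhc1zea) in distal tissue. In proximal tissue their shifts ran from -0.53 (mhc1zba) to 0.52 (mhc1zaa).

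mhc1uma, 1 of 3 measured class I genes of the U lineage, was a down member. It had 0.945 CPM in distal sample 4, against 7.08 and 8.64 CPM in distal samples 2 and 3, and 1.58 CPM in proximal sample 4, against 10.496 and 11.2 CPM in proximal samples 2 and 3. The shares of these families rest on 1 or 2 genes each. Of 17 measured class I genes, 2 were up (11.8%, against 0.388% of all genes) and 1 was down (5.88%, against 0.997%). Of 6 measured class II genes 1 was down (16.7%, against 0.997%). That gene, mhc2dhb, had 57.0 CPM in distal sample 4, against 126 and 171 CPM in distal samples 2 and 3, and 73.3 CPM in proximal sample 4, against 158 and 182 CPM in proximal samples 2 and 3. Apart from mhc1zca, mhc1zda and mhc1uma, the measured genes of the list of MHC and antigen presentation genes were no members. The gene mhc2dhb lay outside that list. The invariant chain gene cd74a had 744 CPM in distal sample 4, against 654 and 752 CPM in distal samples 2 and 3, and the class I light chain gene b2m had 546 CPM in distal sample 4, against 476 and 524 CPM in distal samples 2 and 3. Over the 25 measured genes of the list of MHC and antigen presentation genes, the median shift was -0.01 in distal and -0.11 in proximal tissue, close to the values for all genes. Number 4 was lowest in both regions for 10 of the 25 (40%, against 30.0% of all genes). It was highest in both regions for 6 (24%, against 17.3%).

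The finTRIM family, fish-specific relatives of antiviral TRIM proteins, also held members in both directions. Of 38 measured genes with an ftr name 1 was up (2.63%, against 0.388% of all genes) and 2 were down (5.26%, against 0.997%). ftr86 had 16.9 CPM in distal sample 4, against 6.57 and 6.35 CPM in distal samples 2 and 3, and 22.1 CPM in proximal sample 4, against 8.38 and 8.55 CPM in proximal samples 2 and 3. ftr64 had 1.19 CPM in distal sample 4, against 4.14 and 4.21 CPM in distal samples 2 and 3, and 1.16 CPM in proximal sample 4, against 4.99 and 4.11 CPM in proximal samples 2 and 3. The opposite signs are those of separate copies of 1 family, and ftr80, the other down gene, is described with the regions below. Reads with several alignments were left unassigned, so the counts of MHC, NLR and finTRIM genes with near-identical copies are uncertain. caspb, an inflammatory caspase of zebrafish, had 65.3 CPM in distal sample 4, against 19.7 and 12.04 CPM in distal samples 2 and 3, and 164 CPM in proximal sample 4, against 66.9 and 44.4 CPM in proximal samples 2 and 3. None of the 49 measured genes of the interferon list or the 35 of the inflammation list was a member, which is near the share of all genes.

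Other up genes have roles in transcription and signalling. sox19a, a SoxB1 transcription factor of early neural development, had 26.9 CPM in distal sample 4, against 8.66 and 4.56 CPM in distal samples 2 and 3, and 31.2 CPM in proximal sample 4, against 9.48 and 5.35 CPM in proximal samples 2 and 3. CREB5, a basic leucine zipper factor, had 12.2 CPM in distal sample 4, against 3.86 and 3.67 CPM in distal samples 2 and 3, and 6.38 CPM in proximal sample 4, against 2.54 and 2.38 CPM in proximal samples 2 and 3. SIK1, a salt-inducible kinase, was named after its values were seen, as the up gene with the highest mean level. It had 192 CPM in distal sample 4, against 86.8 and 78.0 CPM in distal samples 2 and 3, and 196 CPM in proximal sample 4, against 87.5 and 89.9 CPM in proximal samples 2 and 3. For SIK1 the other 4 libraries lay close together. gas5, a non-coding host gene of small nucleolar RNAs, had 37.2 CPM in distal sample 4, against 16.0 and 16.1 CPM in distal samples 2 and 3, and 43.2 CPM in proximal sample 4, against 18.2 and 17.1 CPM in proximal samples 2 and 3.

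Among up genes of the cytoskeleton and matrix, tppp, which promotes tubulin polymerisation, had 26.5 CPM in distal sample 4, against 2.61 and 3.18 CPM in distal samples 2 and 3. In proximal tissue it had 10.99 CPM in sample 4, against 1.397 and 2.38 CPM in samples 2 and 3. EMILIN2, an elastin-associated matrix glycoprotein, differed among all 3 numbers. It had 22.9 CPM in distal sample 4, against 0.745 and 9.49 CPM in distal samples 2 and 3, and 38.1 CPM in proximal sample 4, against 1.397 and 6.67 CPM in proximal samples 2 and 3. Number 2 was thus nearly without EMILIN2 reads in both regions, number 3 was intermediate and number 4 was highest. ankrd67, an ankyrin repeat gene, had 10.99 CPM in distal sample 4, against 3.82 and 3.27 CPM in distal samples 2 and 3, and 12.1 CPM in proximal sample 4, against 4.91 and 2.61 CPM in proximal samples 2 and 3.

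mb encodes myoglobin, the oxygen-binding haem protein of muscle, which fish also express in other tissues. It had 237 CPM in distal sample 4, against 50.1 and 52.1 CPM in distal samples 2 and 3, and 51.3 CPM in proximal sample 4, against 24.5 and 20.3 CPM in proximal samples 2 and 3. Its shift was among the few that differed by 1 or more between regions, at 2.21 in distal and 1.201 in proximal tissue. It was the 1 member among 11 measured genes of the muscle list (9.09%, against 0.388% of all genes that were up). The other 10 measured genes of the list were no members. The highest of them was a TAGLN gene (ENSDARG00000033466), a smooth muscle actin-binding protein also found in fibroblasts, with 330.2 CPM in distal sample 4, against 282 and 329 CPM in distal samples 2 and 3, and 563 CPM in proximal sample 4, against 488 and 511 CPM in proximal samples 2 and 3. Skeletal muscle genes were lower: TNNI2 (ENSDARG00000005841) had 13.9 to 22.6 CPM over the 6 libraries, ckma was at most 0.597 CPM and myhz2 at most 0.169 CPM, and pvalb1, pvalb2 and myhz1.1 had 0 counts in every library. The summed level of the list, mb included, was 639 CPM in distal sample 4, against 411 and 478 CPM in distal samples 2 and 3. In proximal tissue it was 696 CPM in sample 4, against 579 and 620 CPM in samples 2 and 3. Of the distal sums, mb alone gave 237 CPM in sample 4, against 50.1 and 52.1 CPM in samples 2 and 3. The list's median shift over 11 measured genes was -0.10 in distal and 0.17 in proximal tissue.

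**Figure D2:**
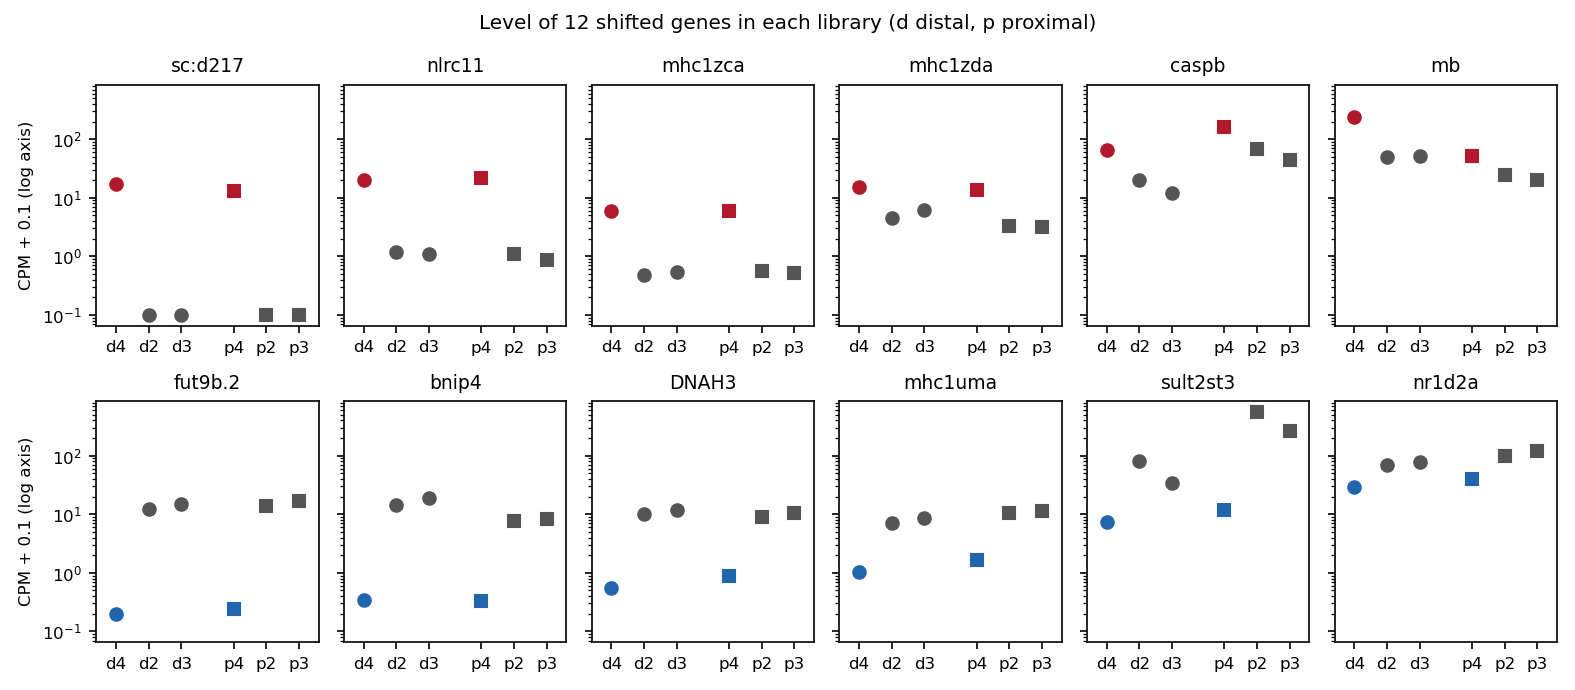
Level of 12 members in each library, as CPM + 0.1 on a log axis; circles are distal (d) and squares proximal (p) samples, coloured for number 4 (red up, blue down) and grey for numbers 2 and 3. nlrc11 lies near 20 CPM in both number-4 samples and near 1 CPM in the other 4, whereas fut9b.2 lies under 0.2 CPM in number 4 and above 12 CPM elsewhere.

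The most extreme down genes were nearly silent in number 4. si:ch1073-190k2.1, which has only a clone-based name, had 0.0994 CPM (2 counts) in distal sample 4, against 20.8 and 37.8 CPM in distal samples 2 and 3, and 0.0466 CPM (1 count) in proximal sample 4, against 35.4 and 54.2 CPM in proximal samples 2 and 3. fut9b.2, a fucosyltransferase gene, had 0.0994 CPM (2 counts) in distal sample 4, against 12.1 and 14.9 CPM in distal samples 2 and 3, and 0.140 CPM (3 counts) in proximal sample 4, against 13.9 and 16.7 CPM in proximal samples 2 and 3. ENSDARG00000101956, without a symbol, had 0 counts in distal sample 4 and 1 count in proximal sample 4, against 2.79 and 4.03 CPM in distal samples 2 and 3 and 6.14 and 7.82 CPM in proximal samples 2 and 3. With so few counts no fold is given for these genes. bnip4, of the BNIP family of mitochondrial cell death and mitophagy proteins, had 0.249 CPM in distal sample 4, against 14.4 and 19.02 CPM in distal samples 2 and 3, and 0.233 CPM in proximal sample 4, against 7.70 and 8.14 CPM in proximal samples 2 and 3. Both number-4 values of bnip4 rest on 5 counts.

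The down genes with large folds also included DNAH3 and EML5. DNAH3, an axonemal dynein heavy chain, had 0.447 CPM in distal sample 4, against 9.87 and 11.9 CPM in distal samples 2 and 3, and 0.791 CPM in proximal sample 4, against 8.85 and 10.24 CPM in proximal samples 2 and 3. EML5, of the family of microtubule-associated EMAP proteins, had 0.746 CPM in distal sample 4, against 17.4 and 11.3 CPM in distal samples 2 and 3, and 0.885 CPM in proximal sample 4, against 14.1 and 8.37 CPM in proximal samples 2 and 3. The smallest ratio of another sample to number 4 was 11.2 for DNAH3 and 9.46 for EML5. fgfr1bl, whose name marks it as similar to an Fgf receptor gene, had 3.03 CPM in distal sample 4, against 13.2 and 18.5 CPM in distal samples 2 and 3, and 3.54 CPM in proximal sample 4, against 11.003 and 13.5 CPM in proximal samples 2 and 3. grna.1, a granulin gene, had 2.49 CPM in distal sample 4, against 7.78 and 9.44 CPM in distal samples 2 and 3, and 1.16 CPM in proximal sample 4, against 5.08 and 6.81 CPM in proximal samples 2 and 3.

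Some down genes had a shift that was much larger in proximal than in distal tissue. sult2st3, a cytosolic sulfotransferase, had 7.16 CPM in distal sample 4, against 81.9 and 34.01 CPM in distal samples 2 and 3, and 11.9 CPM in proximal sample 4, against 558 and 267 CPM in proximal samples 2 and 3. Its log2 shift was -2.87 in distal and -5.01 in proximal tissue. jac4, a jacalin-type lectin gene, had 0.398 CPM in distal sample 4, against 2.42 and 1.70 CPM in distal samples 2 and 3, and 0.605 CPM in proximal sample 4, against 11.7 and 16.5 CPM in proximal samples 2 and 3. The number-4 values of jac4 rest on 8 counts in distal and 13 counts in proximal tissue. For sult2st3 and jac4 alike, the difference between proximal and distal tissue that numbers 2 and 3 showed was much smaller in number 4. The log2 ratio of distal to proximal tissue was -0.72 in number 4, against -2.77 and -2.97 in numbers 2 and 3 for sult2st3, and -0.50 in number 4, against -2.23 and -3.20 in numbers 2 and 3 for jac4.

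CYP8B1 names a pair of genes in the table, orthologous to the human sterol 12-alpha-hydroxylase of bile acid synthesis, and both were down. The first (ENSDARG00000097559) had 0.149 CPM in distal sample 4, against 4.098 and 0.984 CPM in distal samples 2 and 3, and 5.54 CPM in proximal sample 4, against 81.0 and 20.2 CPM in proximal samples 2 and 3. The second (ENSDARG00000097556) had 0.348 CPM in distal sample 4, against 3.82 and 1.298 CPM in distal samples 2 and 3, and 3.86 CPM in proximal sample 4, against 27.3 and 9.92 CPM in proximal samples 2 and 3. In both copies the order was the same in each region, with number 2 highest, number 3 next and number 4 lowest. None of the 39 measured genes of the sterol and fatty acid synthesis list was a member, which is near the share of all genes. The median shift of that list was 0.34 in distal and 0.54 in proximal tissue (0.37 and 0.63 with TMM scaling), and number 4 was highest in both regions for 26 of its 39 genes, or 66.7%, against 17.3% of all genes. HMGCS1, an early enzyme of sterol synthesis, had 134 CPM in distal sample 4, against 78.9 and 62.8 CPM in distal samples 2 and 3, and 339 CPM in proximal sample 4, against 135 and 159 CPM in proximal samples 2 and 3.

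Red blood cell genes were the list with the largest share of down members, 3 of 14 measured (21.4%, against 0.997% of all genes). alas2 encodes the enzyme that starts haem synthesis in erythroid cells. It had 1.74 CPM in distal sample 4, against 4.38 and 29.7 CPM in distal samples 2 and 3, and 1.44 CPM in proximal sample 4, against 5.84 and 18.97 CPM in proximal samples 2 and 3. SPTB, the erythrocyte spectrin beta chain, had 0.746 CPM in distal sample 4, against 1.96 and 11.05 CPM in distal samples 2 and 3, and 0.512 CPM in proximal sample 4, against 1.52 and 8.73 CPM in proximal samples 2 and 3. nt5c2l1, a nucleotidase marker of erythroid cells in zebrafish, had 1.49 CPM in distal sample 4, against 4.56 and 31.6 CPM in distal samples 2 and 3, and 1.21 CPM in proximal sample 4, against 8.17 and 24.2 CPM in proximal samples 2 and 3. In all 3 genes number 4 was lowest, number 2 next and number 3 highest in both regions. The adult globin gene hbaa1, no member, followed the same order with 16.7 CPM in distal sample 4, against 31.1 and 406 CPM in distal samples 2 and 3, and 11.96 CPM in proximal sample 4, against 51.0 and 164 CPM in proximal samples 2 and 3.

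The summed level of the 23 genes of the erythrocyte list was 102 CPM in distal sample 4, against 114 and 635 CPM in distal samples 2 and 3, and 117 CPM in proximal sample 4, against 171 and 345 CPM in proximal samples 2 and 3. The list's median shift was -1.47 in distal and -1.70 in proximal tissue over 14 measured genes, and number 4 was lowest in both regions for 8 of them and highest in both for 2. One gene highest in number 4 was blvrb, a biliverdin reductase gene, with 26.5 CPM in distal sample 4, against 16.7 and 21.1 CPM in distal samples 2 and 3. Of the list's genes, hbae1.3 had 0 counts in every library. In bulk tissue, fewer cells of a type and less RNA per cell cannot be told apart. How much the amount of blood in a piece contributes to the down genes outside the list was not tested. tfr1a, a transferrin receptor outside the list, had 1.84 CPM in distal sample 4, against 5.08 and 6.49 CPM in distal samples 2 and 3, and 6.19 CPM in proximal sample 4, against 19.6 and 15.9 CPM in proximal samples 2 and 3. In tfr1a number 3 was above number 2 in distal tissue and below it in proximal tissue.

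Among the 43 measured circadian clock genes, nr1d2a was the 1 member (2.33%, against 0.997% of all genes that were down). This Rev-erb repressor had 29.0 CPM in distal sample 4, against 68.9 and 79.1 CPM in distal samples 2 and 3, and 40.6 CPM in proximal sample 4, against 98.2 and 119 CPM in proximal samples 2 and 3. The other measured clock genes were no members. Number 4 was lowest in both regions for 10 of the 43, nr1d2a included (23.3%, against 30.0% of all genes). It was highest in both regions for 9 (20.9%, against 17.3%). NR1D2 (ENSDARG00000009594), a near relative of nr1d2a, had 131 CPM in distal sample 4, against 145 and 126 CPM in distal samples 2 and 3. PER3 had 184 CPM in distal sample 4, against 186 and 157 CPM in distal samples 2 and 3. The list's median shift was -0.02 in distal and -0.06 in proximal tissue, as for all genes.

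**Figure D3:**
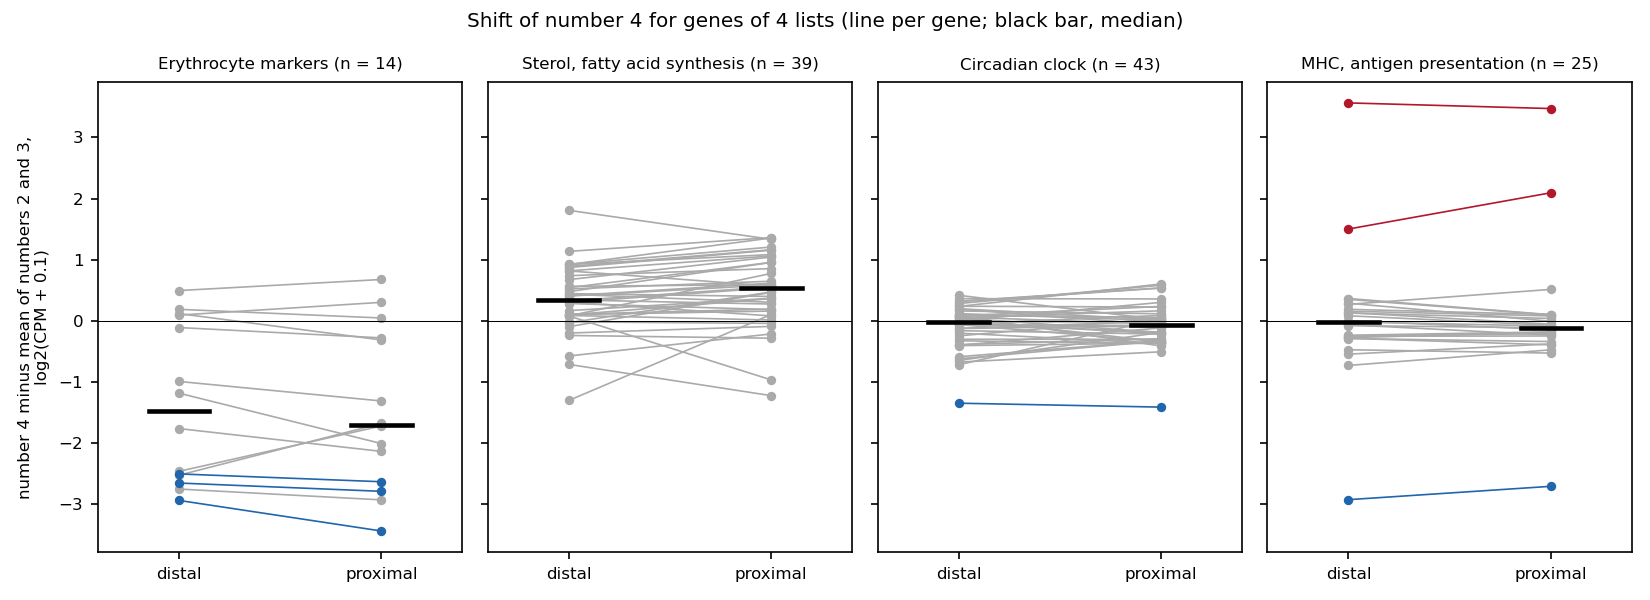
Log2 shift of number 4 from the mean of numbers 2 and 3 in distal and proximal tissue for the measured genes of 4 lists; each line joins the values of a gene, red or blue where the gene is an up or down member, and black bars are the list medians. Erythrocyte genes have medians of -1.47 in distal and -1.70 in proximal tissue, sterol and fatty acid genes of 0.34 and 0.54, and the clock and MHC lists stay near 0 apart from their members.

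Of the blastema and fibroblast list, 1 of 35 measured genes was a member. TPH1 is tryptophan hydroxylase of serotonin synthesis; its zebrafish copy tph1b is known as a marker of fin ray fibroblasts, and the table does not tell which copy this is. It had 10.04 CPM in distal sample 4, against 31.4 and 26.9 CPM in distal samples 2 and 3, and 3.26 CPM in proximal sample 4, against 8.29 and 13.2 CPM in proximal samples 2 and 3. Regeneration signalling genes, of which 53 were measured, held 0 members, and so did the 26 epidermal, 19 osteoblast, 32 leukocyte, 20 endothelial and 26 pigment cell genes measured. The heat shock, unfolded protein, hypoxia, glucocorticoid, oxidative stress, p53, proliferation, ribosomal and mitochondrial lists also held 0. At the shares of all genes, 0.388% up and 0.997% down, lists of these sizes would hold about 0 or 1 member each, so nothing is read from these counts.

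The members differed from other genes in the kind of names they have. Clone-based or cDNA names (si:, zgc:, wu: and the like) were carried by 27 up genes (46.6%) and 62 down genes (41.6%), against 10.4% of all 14945 genes. A further 8 up genes (13.8%) and 30 down genes (20.1%) had no symbol, against 3.37% of all. Ordinary gene symbols, which 86.3% of all genes have, were found for 23 up genes (39.7%) and 57 down genes (38.3%). Clone-based names are placeholders for genes that have not been given a name by homology or function. Members were also lower in level than other genes, as given above, and the part of level in these shares was not tested.

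Clone names also tell which genes were annotated on the same piece of the genome. Of 1198 measured genes with a name of this kind, 73 (6.09%) were members in either direction. Over all 14945 genes 0.388% were up and 0.997% were down. Among the clones, 10 held 2 or more members. These 10 clones, picked for holding several members, carried 25 measured genes, of which 21 were members. A further 15 clones held 1 member beside other measured genes, 45 genes in all. Over the 25 clones with a member and another measured gene, 36 of 70 genes were members. These 25 clones were picked for holding a member, so at least 1 gene of each is a member by that choice. The share of 36 in 70 therefore has no fair counterpart among all genes. On 9 of the 10 clones all members shared a direction, which is frequent by itself since 149 of all 207 members were down. The exception was si:ch73-27e22, where the first gene, si:ch73-27e22.1, had 6.31 CPM in distal sample 4, against 0.186 and 0.447 CPM in distal samples 2 and 3, and 6.24 CPM in proximal sample 4, against 0.254 and 0.274 CPM in proximal samples 2 and 3. Its clone mate si:ch73-27e22.8 had 3.73 CPM in distal sample 4, against 15.1 and 13.8 CPM in distal samples 2 and 3, and 4.47 CPM in proximal sample 4, against 13.3 and 17.2 CPM in proximal samples 2 and 3. One gene of the clone was thus high and the other low in the same number-4 samples.

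Within other clones, genes that were no members varied in their shift. Some moved with the member. si:ch211-196h24.2, beside an up gene, had shifts of 1.39 in distal and 1.28 in proximal tissue. si:ch1073-181h11.4, beside a down gene, had shifts of -1.01 in distal and -1.33 in proximal tissue. On that clone si:ch1073-181h11.2 moved the other way, with 0.80 in distal and 0.58 in proximal tissue. Other members lay beside genes that shifted little or in the other direction. On si:ch211-106j21, gene 2 of the clone had 0.149 CPM in distal sample 4, against 3.12 and 5.01 CPM in distal samples 2 and 3, while gene 5 had 15.4 CPM in distal sample 4, against 16.3 and 16.3 CPM in distal samples 2 and 3. Genes 5, 6 and 9 of clone si:ch73-359m17 were down, with shifts of -1.68, -1.29 and -1.76 in distal tissue, whereas gene 7 had a shift of 0.54 there. Of clone si:dkey-182g1, gene 2 had 47.5 CPM in distal sample 4, against 126 and 134 CPM in distal samples 2 and 3, and gene 10 was not a member.

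**Figure D4:**
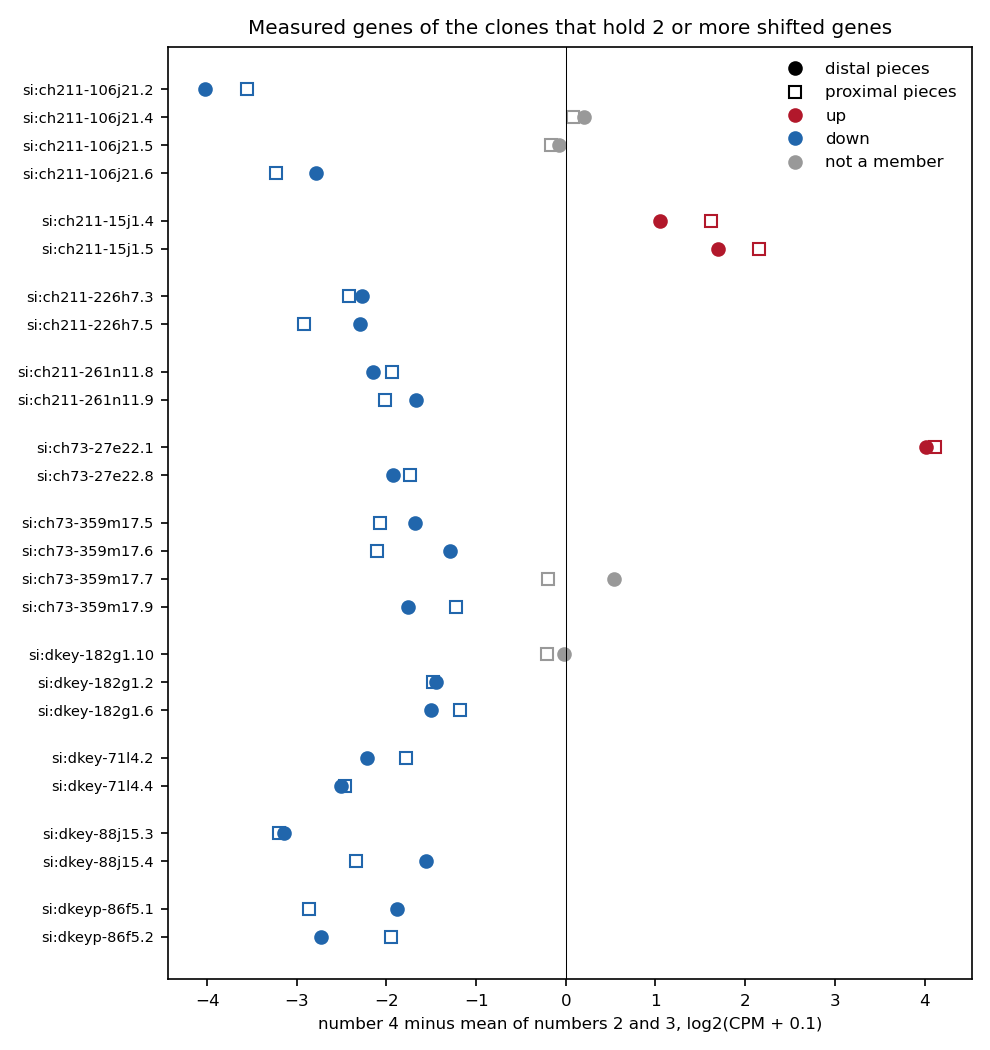
Log2 shift of number 4 from the mean of numbers 2 and 3 (x axis) for the 25 measured genes of the 10 clones that hold 2 or more members; filled circles are distal and open squares proximal pieces, in red for up, blue for down and grey for genes that are no members. The 21 coloured genes lie on 1 side of 0 within each clone except si:ch73-27e22, and the 4 grey genes lie between -0.21 and 0.54.

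Gene order was also examined. It was taken from RefSeq's annotation of assembly GRCz12tu, another build than the GRCz11 the counts rest on, and was used for neighbours only. Of the measured genes, 10927 could be placed, among them 101 members. In the order of placed genes, 25 of these (24.8%) stood next to another member. Of the 10826 placed genes that were no members, 172 (1.59%) stood next to a member. Genes not placed or under a mean of 2 CPM were skipped, so neighbours here need not be adjacent on the genome. The 25 members formed 12 runs. No run mixed directions, and 149 of all 207 members were down. Named examples were mhc1zda beside mhc1zca, both up, and the fucosyltransferase genes fut9b.2 and fut9b.3, both down, with fut9b.3 at 1.34 CPM in distal sample 4, against 5.54 and 6.04 CPM in distal samples 2 and 3. The up genes zgc:173709 and si:ch211-197e7.1 formed another run. alas2 lay beside ela2l, an elastase-like gene, and tnfrsf14, a TNF receptor family gene, beside si:ch211-261n11.8. Overlapping or antisense genes could share reads, since the strand setting of the counting is not given in the sources used here.

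The ratio of number 3 to number 2 was not used by the rule, and members varied in it more than other genes did. Its median size on the log2 scale was 0.50 in distal and 0.28 in proximal tissue for up genes and 0.33 and 0.28 for down genes. Over all 14945 genes it was 0.15 in distal and 0.17 in proximal tissue, and over the 8061 genes under 20 CPM it was 0.19 and 0.21. A ratio of at least 2-fold in the same direction in both regions was seen for 7 of 58 up genes (12.1%) and 11 of 149 down genes (7.38%), against 0.562% of all genes and 0.831% of those under 20 CPM. These are descriptions, since the same libraries enter the rule. Besides the erythroid genes, EMILIN2, sult2st3 and both CYP8B1 genes, this group included hif1al2, an hypoxia-inducible factor alpha-like gene. It had 0.249 CPM in distal sample 4, against 2.14 and 7.74 CPM in distal samples 2 and 3, and 0.233 CPM in proximal sample 4, against 2.58 and 6.40 CPM in proximal samples 2 and 3.

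The study's own comparison, distal against proximal tissue, was not used to choose members, but the rule picks genes with a wide spread within regions, which enters the error of a fit without a block. The comparison was tested with edgeR's quasi-likelihood test over 18455 genes, where 15.3% were higher distally and 14.4% proximally at a Benjamini-Hochberg adjusted p under 0.05, 29.7% in all. All 149 down genes and 53 of the 58 up genes had enough counts to be tested; the other 5 up genes, sc:d217, si:ch73-27e22.1 and 3 without a symbol, were counted mainly in number 4. By edgeR 0 up genes were called higher in distal tissue, as by DESeq2 and limma-voom, and 3 were called higher in the proximal pieces. Over both directions 7 tested up genes had an unadjusted p under 0.05. Of the down genes, 3 were called higher distally and 9 proximally. The share called, 5.66% of tested up genes and 8.05% of down genes, was below that of all genes. The fit counts the shift of number 4, which the rule made large, as spread. The median SE of the log2 fold change was 0.73 for up and 0.57 for down genes, against 0.17 for all genes. Without both number-4 samples it was 0.32 and 0.21, against 0.17. Members were also lower in level, and the part of each in the share called was not tested.

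With the replicate number as a block, the shift that both pieces share is taken out. Then 6 up genes were called higher distally and 19 proximally, 47.2% of those tested, and 15 down genes distally and 54 proximally, or 46.3%. Over all genes the block gave 23.3% higher distally and 25.1% proximally, 48.4% in all, so the members' share was near the background. Without both number-4 samples, 1 up and 12 down genes were higher in distal tissue and 11 up and 41 down genes higher in proximal tissue. The corresponding background was 14.5% and 13.9%, 28.4% in all. Called in this fit were 22.6% of tested up genes, below that background, and 35.6% of tested down genes, above it. In each of these fits more members were called higher in proximal than in distal tissue. The median log2 fold change of distal over proximal tissue was -0.31 for up and -0.24 for down genes without the block, and -0.22 and -0.27 with it, against -0.01 over all genes tested in each fit.

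Down genes higher in distal tissue included a matrix and a ciliary gene. vcana, a versican proteoglycan gene, had 38.1 CPM in distal sample 4, against 109 and 124 CPM in distal samples 2 and 3, and 3.07 CPM in proximal sample 4, against 8.76 and 9.92 CPM in proximal samples 2 and 3. It averaged 90.4 ± 45.9 CPM in distal and 7.25 ± 3.66 CPM in proximal tissue (SD, n = 3 each). Distal over proximal tissue was 3.52 on the log2 scale (SE 0.52; edgeR adjusted p = 0.00171) without and 3.52 (SE 0.09; edgeR adjusted p = 1.21e-10) with the block, and the ratios within numbers 4, 2 and 3 were 3.59, 3.62 and 3.63. The level of vcana thus differed between numbers while the ratio between regions was nearly the same in each. ODAD2, a docking protein of outer dynein arms, had 2.19 CPM in distal sample 4, against 8.80 and 7.16 CPM in distal samples 2 and 3, and 0.140 to 0.339 CPM in the proximal samples. Distal exceeded proximal tissue by 4.35 on the log2 scale (SE 0.60; edgeR adjusted p = 0.00123). The proximal values rest on 3 to 8 counts.

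Down genes higher in proximal tissue included both CYP8B1 genes. ENSDARG00000097559 averaged 1.74 ± 2.08 CPM in distal and 35.6 ± 40.0 CPM in proximal tissue (SD, n = 3 each), which on the log2 scale was -4.45 (SE 1.13; edgeR adjusted p = 0.0200). The ratios within numbers 4, 2 and 3 were -4.50, -4.27 and -4.23. ENSDARG00000097556 averaged 1.82 ± 1.79 CPM in distal and 13.7 ± 12.2 CPM in proximal tissue (SD, n = 3 each), which on the log2 scale was -3.01 (SE 0.85; edgeR adjusted p = 0.0309). Its ratios within numbers 4, 2 and 3 were -3.15, -2.81 and -2.84. Both genes were higher in proximal than in distal tissue in each number. The values of distal sample 4 rest on 3 counts for ENSDARG00000097559 and 7 counts for ENSDARG00000097556. At such levels the pseudocount of 0.1 CPM shrinks the ratio, so whether number 4 kept the same ratio as the others is uncertain. CHRM4, a muscarinic acetylcholine receptor, had a regional difference of -3.27 (log2, SE 0.62; edgeR adjusted p = 0.00557), and cdh26.2, a cadherin gene, of -2.20 (SE 0.43; edgeR adjusted p = 0.00688). tfr1a changed by -1.74 (SE 0.49; edgeR adjusted p = 0.0308) and ftr80 by -1.89 (SE 0.58; edgeR adjusted p = 0.0432). The remaining calls were hid1b, si:dkey-85k7.12 and ENSDARG00000113315, at -2.40, -1.83 and -2.40 on the log2 scale.

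CBS, cystathionine beta-synthase of the transsulfuration pathway, was the up gene with the lowest p between regions without the block; with the block or without number 4, that of si:ch211-117l17.6 was lower. It had 1.34 CPM in distal sample 4, against 0.652 and 0.582 CPM in distal samples 2 and 3, and 7.59 CPM in proximal sample 4, against 3.597 and 3.20 CPM in proximal samples 2 and 3. Distal over proximal tissue was -2.62 on the log2 scale (SE 0.47; edgeR adjusted p = 0.00467), with ratios of -2.41, -2.30 and -2.28 in numbers 4, 2 and 3. The other up calls were si:ch211-117l17.6 at -2.78 (SE 0.69; edgeR adjusted p = 0.0187) and wu:fk65c09 at -3.35 (SE 1.05; edgeR adjusted p = 0.0455). Of the 15 calls, 7 held in every fit that left out a library, namely CBS, vcana, ODAD2, CHRM4, cdh26.2, si:dkey-85k7.12 and ENSDARG00000113315. The other 8 were lost in 2 to 5 of these 6 fits. Without distal sample 3, the edgeR adjusted p was 0.0731 for si:ch211-117l17.6, 0.133 for wu:fk65c09, 0.0784 for ENSDARG00000097559, 0.105 for ENSDARG00000097556, 0.111 for si:ch211-226f24.4, 0.130 for hid1b and 0.0904 for ftr80. Without proximal sample 2 it was 0.117 for tfr1a.

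For several named genes the call between regions differed with the block. caspb had a log2 ratio of distal to proximal tissue of -1.64 (SE 0.69; edgeR adjusted p = 0.112) without the block and of -1.76 (SE 0.10; edgeR adjusted p = 5.16e-08) with it. mb had 1.69 (SE 0.66; edgeR adjusted p = 0.0896) without and 1.43 (SE 0.16; edgeR adjusted p = 1.56e-05) with the block, and TPH1 had 1.36 (SE 0.51; edgeR adjusted p = 0.0794) and 1.39 (SE 0.15; edgeR adjusted p = 1.35e-05). The clock gene nr1d2a had -0.65 (SE 0.43; edgeR adjusted p = 0.287) without and -0.65 (SE 0.08; edgeR adjusted p = 2.81e-05) with the block. In each of these genes the direction between regions was the same in all 3 numbers. Over all members that was so for 31 of 58 up genes (53.4%) and 95 of 149 down genes (63.8%), against 72.2% of all 14945 genes. Among genes under 20 CPM the share was 68.9%.

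**Figure D5:**
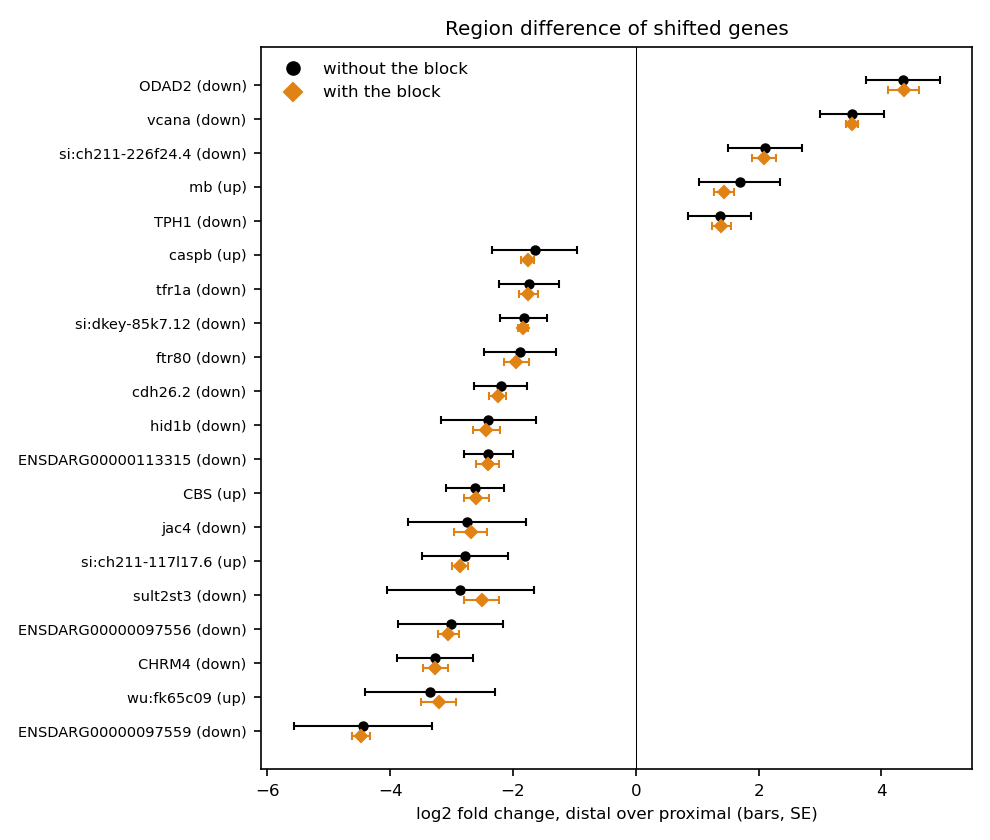
Log2 fold change of distal over proximal tissue (x axis, bars are SE) for 20 members, fitted by edgeR without (black circles) and with (orange diamonds) the replicate number as a block. The estimates agree closely, from 4.35 for ODAD2 to -4.45 for ENSDARG00000097559 without the block, while the bars are shorter with it.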

How the data were processed

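The deposited values are raw counts per Ensembl gene identifier, 1 file a sample. Per the submitters' processing notes, reads were aligned with TopHat2 and counted with HTSeq, on GRCz11 (danRer11); versions, annotation release and strand setting are not given in the sources used here. RNA was TRIzol-extracted and libraries were stranded mRNA libraries, per the labels' protocols. Lines that name no gene were left out of totals; among uniquely aligned reads, 10.8% to 14.6% fell outside genes. Library totals of 20113859 to 23629159 put the floor of 3 counts at 0.127 to 0.149 CPM; intervals and floors cover counting error only.

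The members and gene lists were chosen with earlier results of these data known. CPM was a gene's count over the sum of gene counts, and log2 ratios used a pseudocount of 0.1 CPM. Symbols come from a table that named 29178 of 31901 identifiers; upper-case symbols are those of orthologs, and some are shared by several genes. Named were the members with the largest folds (mean at least 5 CPM, no clone name), the lowest regional p, those in lists, at the threshold, or beside another member; others were named after their values were seen.

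Regions were compared with edgeR 4.0.16 in R 4.3.3 (filterByExpr, minimum count 10; TMM; quasi-likelihood F-test; Benjamini-Hochberg over 18455 genes), without a block. The alternatives were other scalings and filters, DESeq2 1.42.0, limma-voom (limma 3.58.1), a replicate block, and leaving out samples. Numbers come from the sample titles. Deviations from region means correlated at 0.42, 0.56 and 0.68 between the pieces numbered 2, 3 and 4, and the block fit took the numbers as pairs. What same-numbered pieces share, such as fins or a batch, is not given in the labels. The main fit has no block, since the series' design text names none. Libraries of a region differed beyond sampling noise (chi-square per degree of freedom 16.9 to 29.9). The code was tested on simulated data. Some genes are not reported here.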

Additional observations from a re-analysis of the deposited data

How the results depend on the processing

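The number of members follows the rule. With TMM-scaled CPM it gave 70 up and 137 down genes, and with DESeq2 size factors 71 and 136; 57 of the 58 up genes stayed in both cases. A fold of 1.5 gave 177 up and 344 down genes, a fold of 3 gave 22 and 56, a mean of at least 1 CPM gave 79 and 217, and a mean of at least 10 CPM gave 18 and 50. Without replicate 2 there were 119 up and 248 down genes, and without replicate 3 there were 113 and 181.

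Regional calls moved most with the block and with number 4. With the replicate block, 6 up and 15 down genes were higher in distal pieces, and 19 up and 54 down genes in proximal pieces. Without both number-4 samples the counts were 1, 12, 11 and 41. Leaving out 1 library at a time gave 0 up and 2 to 7 down genes higher in distal tissue, and 1 to 9 up and 4 to 21 down genes higher in proximal tissue. Single libraries moved these counts by over 1.5 times: up genes higher in proximal tissue numbered 1 without distal sample 2, 1 without distal sample 3 and 9 without distal sample 4. Down genes higher in distal tissue numbered 7 without distal sample 4, and those higher in proximal tissue 5 without distal sample 3, 4 without proximal sample 2 and 21 without proximal sample 4.

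The other scalings, filters and tests kept each count within 1.5 times. limma-voom lost the calls of wu:fk65c09, si:ch211-226f24.4, hid1b and both CYP8B1 genes, and library size alone and DESeq2 each lost those of hid1b and ftr80. The block added 29 calls among 76 members followed by name and ended none, and no called gene changed direction. Without the block, the median SE of 0.73 for up and 0.57 for down genes limits which differences between regions could be called.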

Other observations

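Several gene lists without a member leaned one way in number 4, with smaller shifts than the members, while others had medians near 0 (hypoxia and glycolysis 0.02 in distal and 0.01 in proximal tissue, heat shock and chaperones -0.02 and -0.11, mitochondrially encoded genes -0.05 and -0.09). Of 76 measured ribosomal protein genes, 41 were highest in number 4 in both regions (53.9%, against 17.3% of all genes), with a median log2 shift of 0.33 in distal and 0.11 in proximal tissue. Of 48 proliferation genes, 0 were highest and 23 were lowest in number 4 in both regions (47.9%, against 30.0% of all genes), with medians of -0.26 in distal and -0.27 in proximal tissue. Of 34 immediate early and AP-1 genes, 15 were highest in number 4 in both regions, with medians of 0.23 in distal and 0.42 in proximal tissue. Interferon response genes were lowest in number 4 in both regions for 26 of 49 (53.1%), with medians of -0.18 in distal and -0.23 in proximal tissue. Endothelial genes were lowest in number 4 in both regions for 11 of 20, with medians of -0.21 in distal and -0.51 in proximal tissue. The size of the shifts depends on scaling. With TMM scaling the proximal medians were -0.14 for interferon, -0.18 for proliferation and -0.42 for endothelial genes. They were 0.20 for ribosomal protein and 0.51 for immediate early genes. Over all genes the proximal median was -0.08 unscaled and 0.01 with TMM scaling. These are values of the same libraries that chose the members, without a test.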
